A study of Mus musculus with 6 samples.

Results

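The extracellular matrix of the lung is cut by secreted and membrane-bound metalloproteinases, and the tissue inhibitors of metalloproteinases hold these enzymes in check. Every gene of the mouse array named Mmp (matrix metalloproteinase), Timp (tissue inhibitor of metalloproteinases) or Adamts (a disintegrin and metalloproteinase with thrombospondin motifs) with a number was taken, apart from Adamts2, if the platform annotation gave its probe set a single gene. This gave 63 of 45037 probe sets and 35 of 17097 genes, made up of 18 Mmp, 3 Timp and 14 Adamts genes. Where a gene had several probe sets, the one with the highest mean over all arrays stood for it. By that mean, 18 of the 35 genes lay above the median probe set (4.80 on the log2 scale) and are called bright, and 17 lay at or below it and are called dim. Mmp7 was the bright gene closest to that line, with a mean of 4.82, and Mmp12 the dim gene closest to it, with 4.53.

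Whole lungs of male BALB/c mice were compared. The hydrogen group consisted of 3 mice that breathed air with 2% H2 gas for 3 weeks, and the control group of 3 mice kept in normal air. All mice were 10 weeks old by their labels, no allele or other agent was named, and each mouse had its own MG-430 PM array. The design asks how breathing hydrogen changes lung transcripts.

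Matrix metalloproteinases are made as inactive precursors and are sorted by their substrates into collagenases, gelatinases, stromelysins and membrane-type enzymes. ADAMTS enzymes cut proteoglycans such as versican and aggrecan, or process procollagens and other matrix proteins. TIMPs bind the catalytic site of these proteases, and TIMP3, unlike its relatives, is itself bound to the matrix and also inhibits several ADAM and ADAMTS enzymes.

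Differences between the groups were common over the whole array, which sets the scale for every count below. At an adjusted p under 0.05 in limma, 21213 of the 45037 probe sets differed, 47.1% of all, with 10956 higher (24.3%) and 10257 lower (22.8%) in the hydrogen group. With each array centred on its median, that split was 6377 higher and 14571 lower. Arrays correlated at r = 0.996 to 0.997 within a group and 0.980 to 0.988 between groups, and the SD over probe sets was 1.80 to 1.81 on hydrogen arrays and 1.90 to 1.92 on control arrays. Of 104 control probe sets of the platform, 54 differed as well, 20 higher and 34 lower. The labels give no batch, so a batch and the exposure cannot be told apart. Of 8 lung epithelial markers, 7 were measured and all 7 were bright; 2 were lower and none higher, with a summed linear signal of 33445 to 34128 in the hydrogen group and 34488 to 35132 in controls. Sftpc and Scgb1a1, which carry much of that sum, lay close to the highest value of any array, 13.25. Heart muscle markers were lower for all 11 measured genes, with a summed linear signal of 616 to 3046 in the hydrogen group and 6150 to 7796 in controls.

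Among the protease and inhibitor genes, 8 passed as higher in the hydrogen group, 9 as lower, and 18 did not pass, so that 48.6% were called, against 51.4% of all genes. Over the 63 probe sets 14 were higher and 16 lower, 47.6% in all, next to the 47.1% over the array. The members were thus called about as often as any gene, and the direction was split. Of the 18 bright genes, 5 were higher (27.8%) and 6 lower (33.3%), where 16.4% of all bright genes were higher and 37.9% lower. Of the 17 dim genes, 3 were higher (17.6%) and 3 lower (17.6%), where 41.0% of all dim genes were higher and 5.28% lower. The median log2 fold change, given as hydrogen minus control throughout, was 0.03 for the bright members and 0.03 for the dim ones, with -0.12 for all bright genes and 0.15 for all dim genes. These medians moved with the scaling, to -0.06 for bright and -0.06 for dim members with arrays centred on their medians, to 0.18 and -0.05 after a new quantile normalisation, and to 0.17 and -0.05 after cyclic loess. Hydrogen and control values lay apart without overlap for 16 of the 35 genes, whereas 61.0% of all genes had no overlap.

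**Figure D1:**
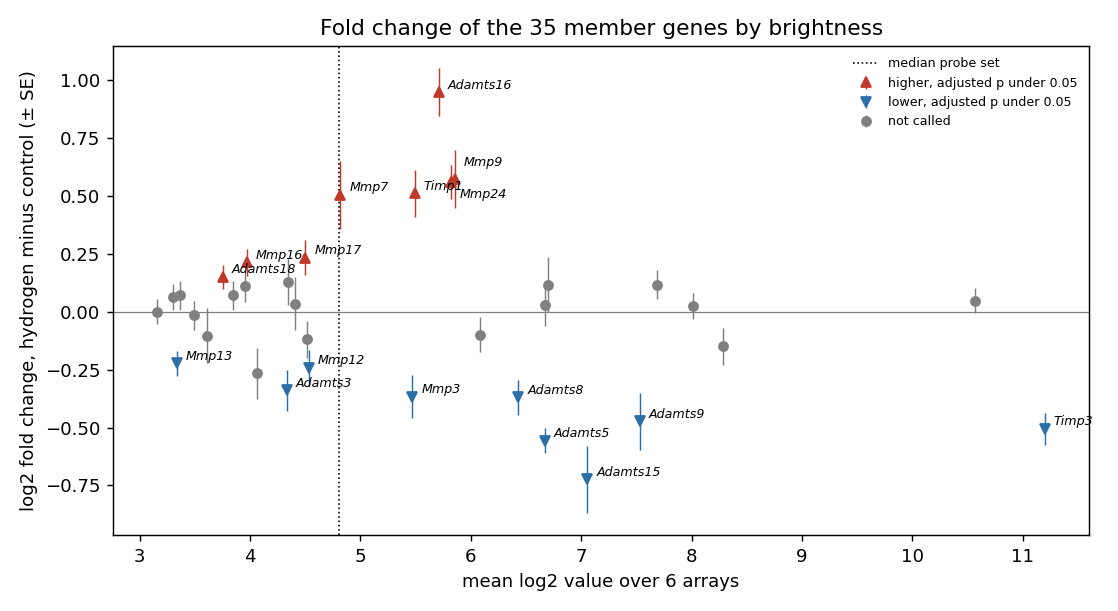
Log2 fold change (hydrogen minus control, with its SE) of the brightest probe set of each of the 35 member genes against its mean log2 value over 6 arrays, with the median probe set as a dotted line. Bright genes spread from 0.95 for Adamts16 to -0.72 for Adamts15, while dim genes that passed lie between 0.23 and -0.34.

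The inhibitors changed in opposite directions: Timp3 was lower, Timp1 was higher, and the brightest probe set of Timp2 did not pass. Timp3 had log2 values of 10.89, 10.87 and 11.08 in the hydrogen group, against 11.43, 11.45 and 11.48 in controls. Each hydrogen lung lay below each control lung. The log2 fold change was -0.51 (SE 0.07, limma adjusted p = 0.000922), 0.704 times the control level. The 4 probe sets of Timp3 were all lower, and the dimmest of them had the largest difference, with 5.62, 5.44 and 5.62 in the hydrogen group, against 6.75, 6.81 and 6.87 in controls (log2 fold change -1.25, adjusted p = 0.00015). The remaining probe sets of the gene had -0.46 (adjusted p = 0.00294) and -0.36 (adjusted p = 0.00515). All 4 thus had the same direction, although their sizes differed by more than their SEs.

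Timp1, which encodes an inducible inhibitor known for binding pro-MMP9, had 5.84, 5.90 and 5.50 in the hydrogen group, against 5.18, 5.29 and 5.24 in controls. The groups did not overlap, and the third hydrogen mouse lay closest to the controls. Its log2 fold change was 0.51 (SE 0.10, adjusted p = 0.00449), 1.42 times the control level, from a single probe set. Timp2, the inhibitor that also takes part in the activation of pro-MMP2 by MMP14, had 10.61, 10.58 and 10.57 in the hydrogen group, against 10.55, 10.49 and 10.58 in controls. These values overlapped (log2 fold change 0.05, SE 0.05, adjusted p = 0.495). Of its 5 probe sets, 4 did not pass. The fifth was lower, with 8.03, 7.89 and 8.11 in the hydrogen group, against 8.68, 8.71 and 8.88 in controls (log2 fold change -0.75, adjusted p = 0.000414). The probe sets of Timp2 therefore disagreed, and their mean over the gene had -0.18 (adjusted p = 0.0305). Timp4 was not analysed here.

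**Figure D2:**
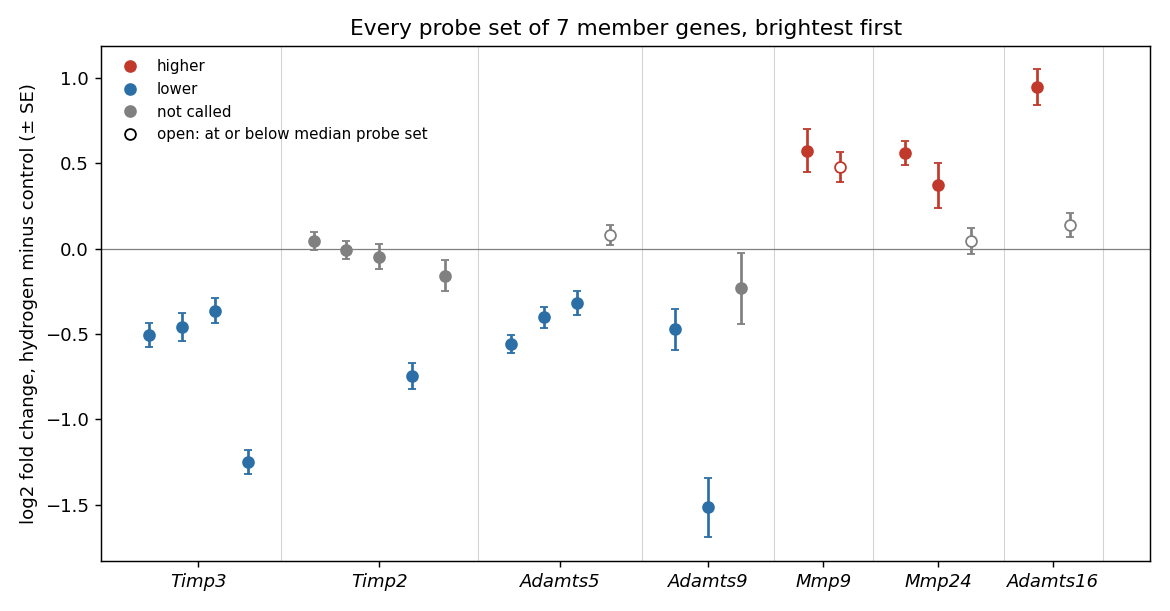
Log2 fold change (hydrogen minus control, with its SE) of each probe set of 7 member genes, ordered by brightness within a gene. All 4 probe sets of Timp3 and both of Mmp9 were called in 1 direction, whereas 1 of 5 for Timp2 and 1 of 2 for Adamts16 were called.

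The stretches just before the transcription starts of the inhibitors that differed are shown because Timp1 and Timp3 moved in opposite directions. They come from RefSeq (GRCm38.p6), 120 bases each, with the GC box GGGCGG, read on either strand, in capitals.
Timp1 (chrX:20870046-20870165, plus strand): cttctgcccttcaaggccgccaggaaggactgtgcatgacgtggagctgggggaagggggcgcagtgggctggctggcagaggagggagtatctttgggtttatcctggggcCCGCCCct
Timp3 (chr10:86300292-86300411, plus strand): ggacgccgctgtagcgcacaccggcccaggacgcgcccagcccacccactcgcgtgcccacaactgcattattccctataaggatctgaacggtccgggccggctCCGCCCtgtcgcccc
Both hold a GC box close to the start, on the opposite strand, 8 bases before it in Timp1 and 15 bases before it in Timp3. The GC box was found in 35.7% of all 32851 promoter windows of 300 bases (250 before and 50 after the start). Among the members it was found in 12 of 25 windows, from 12 of the 22 genes that had a window. Genes that held it were higher (Timp1, Mmp24, Adamts18), lower (Timp3, Adamts3, Adamts9) or not called.

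Of the gelatinases, enzymes that degrade denatured collagen and basement membrane collagen, Mmp9 was higher and Mmp2 did not pass. Mmp9 had 6.15, 6.39 and 5.88 in the hydrogen group, against 5.42, 5.60 and 5.68 in controls, with no overlap. The log2 fold change was 0.57 (SE 0.12, adjusted p = 0.0066), 1.49 times the control level. Its further, dim probe set was higher too, with 4.85, 5.11 and 4.83 in the hydrogen group, against 4.55, 4.43 and 4.38 in controls (log2 fold change 0.48, adjusted p = 0.00304). Both probe sets were highest in the second hydrogen mouse. Mmp9 protein is stored in neutrophil granules, and of 10 measured neutrophil markers 2 were higher and 1 was lower, with a summed linear signal of 1699 to 2156 in the hydrogen group and 1536 to 2093 in controls. The lower one was Ltf, which encodes lactoferrin, with 7.03, 4.83 and 5.34 in the hydrogen group, against 8.50, 8.48 and 8.26 in controls (log2 fold change -2.68, SE 0.46, adjusted p = 0.00247). That is the largest change on the list, and lactoferrin is also made by glandular epithelium. Of the bright markers Elane, the neutrophil elastase gene, was higher (0.40, adjusted p = 0.00611). The calprotectin gene S100a8, picked after its values were seen, had 0.49 without passing (adjusted p = 0.0767). The 5 bright markers that did not pass ran from -0.12 for Lcn2 to 0.49 for S100a8. Without Ltf, left out after its values were seen, the sums were 1658 to 2127 in the hydrogen group and 1229 to 1736 in controls. Sums of a list cut in this way cannot test neutrophil number. The part of neutrophil number in the Mmp9 difference was not tested. In whole lung RNA, a change in the number of cells of a type and a change in RNA per cell cannot be told apart.

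Mmp2 had 8.0, 8.03 and 8.04 in the hydrogen group, against 7.92, 8.03 and 8.05 in controls. The groups overlapped and the log2 fold change was 0.02 (SE 0.06, adjusted p = 0.76). It was called higher after cyclic loess (0.22, adjusted p = 0.0216) or a new quantile normalisation (0.25, adjusted p = 0.0134), so its call depends on the scaling.

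The membrane-type enzymes, which act at the cell surface, were higher for 3 of the 4 measured genes, Mmp24, Mmp16 and Mmp17, and lower for none, though Mmp16 and Mmp17 were not called under any of the 3 other scalings. Both of these genes were dim, and 41.0% of all dim genes were higher, whereas Mmp24 was bright, where 16.4% of all genes were higher. Mmp24, whose protein MT5-MMP is best known from the nervous system, had 6.03, 6.20 and 6.06 in the hydrogen group, against 5.43, 5.55 and 5.63 in controls. The groups lay apart (log2 fold change 0.56, SE 0.07, adjusted p = 0.000818), and a further bright probe set was higher as well (0.37, adjusted p = 0.0497), while its dim probe set did not pass (0.04). The mean over the 3 probe sets had 0.32. The others that passed were dim. Mmp16 had 4.06, 4.15 and 4.02 in the hydrogen group, against 3.89, 3.88 and 3.82 in controls (log2 fold change 0.21, adjusted p = 0.0168). Mmp17 had 4.73, 4.53 and 4.59 in the hydrogen group, against 4.31, 4.34 and 4.50 in controls (log2 fold change 0.23, adjusted p = 0.0336). Neither overlapped. Both calls ended when arrays were centred on their medians (adjusted p = 0.111 for Mmp16 and 0.148 for Mmp17). That of Mmp16 also ended without hydrogen replicate 2 (0.0663), and that of Mmp17 without hydrogen replicate 1 or 3 (0.11 and 0.0581) or control replicate 1 or 2 (0.102 and 0.0976). Mmp14, the membrane enzyme that activates pro-MMP2, had 6.87, 6.72 and 6.48 in the hydrogen group, against 6.68, 6.66 and 6.64 in controls. These overlapped, with the hydrogen values spread on both sides of the controls (log2 fold change 0.03, SE 0.09, adjusted p = 0.812).

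Stromelysin, matrilysin and macrophage elastase genes differed among themselves: Mmp7 was higher, Mmp3 and Mmp12 were lower, and Mmp10 and Mmp11 did not pass. Mmp7, matrilysin, an enzyme of epithelial cells, had 5.22, 4.80 and 5.19 in the hydrogen group, against 4.55, 4.32 and 4.83 in controls. It was called (log2 fold change 0.50, SE 0.15, adjusted p = 0.022) although the second hydrogen mouse lay below the third control mouse. Leaving out hydrogen replicate 1 or 3 (adjusted p = 0.0726 and 0.065) or control replicate 1 or 2 (0.0597 and 0.0744) ended that call, as did cyclic loess (0.0706) and a new quantile normalisation (0.0527).

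Mmp3, stromelysin 1, which cuts many matrix proteins and activates other MMPs, had 5.10, 5.46 and 5.30 in the hydrogen group, against 5.66, 5.58 and 5.72 in controls. There was no overlap (log2 fold change -0.37, SE 0.09, adjusted p = 0.0118), and the call was kept in all 16 alternatives. Mmp12, macrophage elastase, was dim, with 4.31, 4.54 and 4.38 in the hydrogen group, against 4.63, 4.75 and 4.58 in controls. Its values did not overlap (log2 fold change -0.24, adjusted p = 0.0296), and the call ended on leaving out control replicate 1 or 2 (adjusted p = 0.0583 and 0.0977) or hydrogen replicate 1 or 3 (0.0982 and 0.0749). Of 8 macrophage markers measured, 3 were lower and none higher, with a summed linear signal of 1372 to 1636 in the hydrogen group and 1439 to 2061 in controls. The 3 lower markers were among the 7 bright ones, and 37.9% of all bright genes were lower. The part of macrophage number in the Mmp12 difference was not tested.

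The 4 genes of the collagenase class, named for enzymes that open the collagen triple helix, were all dim. Mmp13 was lower, with 3.22, 3.24 and 3.21 in the hydrogen group, against 3.47, 3.48 and 3.39 in controls (log2 fold change -0.22, adjusted p = 0.00993). The groups lay apart at a level near the bottom of the scale, which began at 2.61. Mmp8, the neutrophil collagenase, had 0.11 (adjusted p = 0.224), Mmp1b 0.06 (adjusted p = 0.389) and Mmp1a 0.00 (adjusted p = 1). None of Mmp19, Mmp20 and Mmp23, which belong to no such class, was called. Mmp19 came closest with a log2 fold change of -0.27 (adjusted p = 0.0731), and it was called lower after cyclic loess (-0.39, adjusted p = 0.0255) and under both other scalings.

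**Figure D3:**
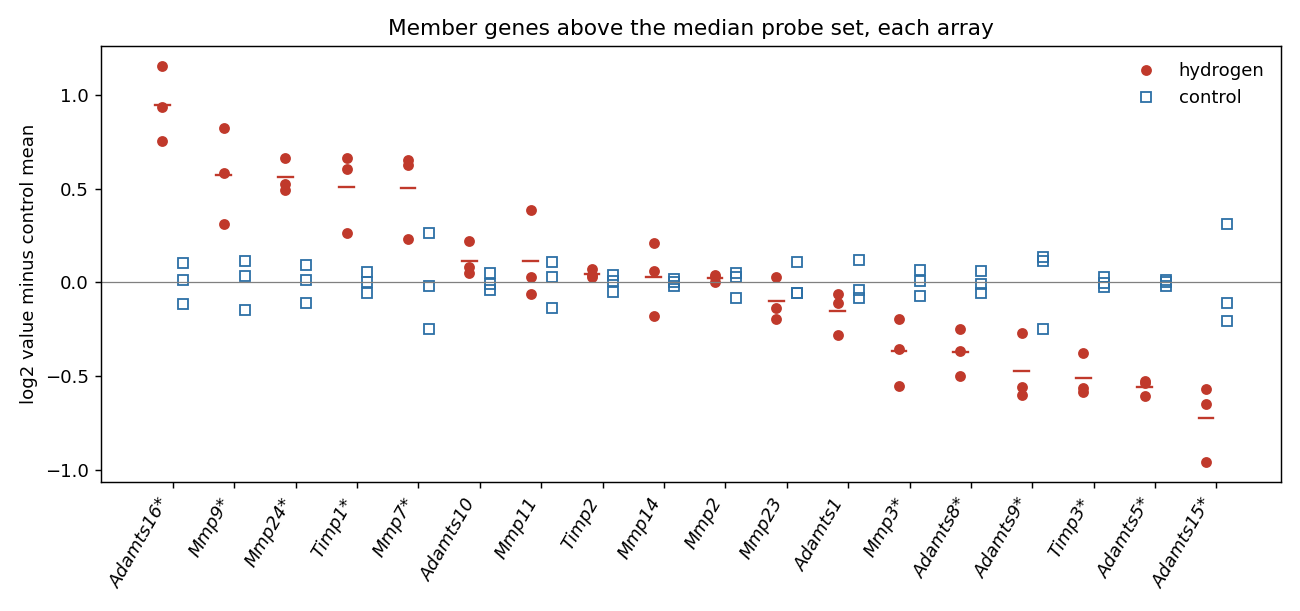
Log2 value of each array minus the control mean for the 18 bright member genes, hydrogen arrays as filled red points with their mean as a bar and control arrays as open blue squares. An asterisk marks an adjusted p under 0.05. Hydrogen and control points lie apart for 10 of the 11 genes so marked, and Mmp7 is the exception.

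Of the 35 genes, 12 lie on chromosome 9. In RefSeq order these begin with Mmp13, Mmp12, Mmp1b, Mmp3, Mmp1a, Mmp10, Mmp8, Mmp20 and Mmp7, which belong to the mouse MMP gene cluster. Along that order the log2 fold changes were -0.22, -0.24, 0.06, -0.37, 0.00, 0.13, 0.11, 0.07 and 0.50. Of these only Mmp13, Mmp12 and Mmp3 were called lower and only Mmp7, the last, was called higher. Mmp1b, which lies between Mmp12 and Mmp3, was not called. All but Mmp3 and Mmp7 were dim, and the groups of Mmp7 overlapped. The AP-1 motif, bound by FOS and JUN proteins and known from MMP promoters, was searched as TGACTCA on both strands (TGAGTCA on the opposite one), and a TATA motif as TATAAA on both strands. AP-1 was found in 5.20% of all promoter windows and in 7 of the 25 member windows. These came from 7 of the 22 member genes with a window, all of them in this cluster (Mmp13, Mmp12, Mmp1b, Mmp3, Mmp1a, Mmp10 and Mmp7). The other 13 member genes, among them Mmp9, Adamts5, Adamts8, Adamts15 and Adamts16, had no window and were not searched for any motif. TATAAA was found in 13.6% of all windows and in 10 of the 25 member windows, from 10 of the 22 genes.

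The 120 bases before the start of the 4 cluster genes that passed the test are shown, since they share the AP-1 motif but differ in direction. AP-1 and TATA motifs are in capitals, and they do not overlap. For Mmp12, RefSeq lists a further start whose window held neither motif, and for Mmp7 a further start whose window held neither as well.
Mmp7 (chr9:7691970-7692089, plus strand): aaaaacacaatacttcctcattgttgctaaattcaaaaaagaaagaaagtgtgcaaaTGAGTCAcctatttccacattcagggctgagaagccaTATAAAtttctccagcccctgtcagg
Mmp3 (chr9:7445702-7445821, plus strand): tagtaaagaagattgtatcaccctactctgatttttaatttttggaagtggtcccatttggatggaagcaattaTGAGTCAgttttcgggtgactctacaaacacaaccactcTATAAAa
Mmp12 (chr9:7347254-7347373, plus strand): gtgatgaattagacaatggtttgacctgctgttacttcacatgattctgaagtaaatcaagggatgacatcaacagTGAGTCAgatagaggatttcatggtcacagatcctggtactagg
Mmp13 (chr9:7272394-7272513, plus strand): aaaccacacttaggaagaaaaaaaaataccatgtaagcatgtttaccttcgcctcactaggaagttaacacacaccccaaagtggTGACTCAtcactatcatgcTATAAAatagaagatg
The AP-1 motif began 63 bases before the start in Mmp7, which was higher, and 46, 44 and 35 bases before it in Mmp3, Mmp12 and Mmp13, which were lower. The motif was also present in Mmp10, Mmp1a and Mmp1b, which were not called. Its presence thus went with no common direction. A match describes the letters of the window and is no evidence of binding.

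The ADAMTS enzymes that cut proteoglycans were lower for 4 of 7 genes, Adamts5, Adamts15, Adamts8 and Adamts9, and higher for none, though 2 of the 3 other scalings ended the call of Adamts9 and 1 that of Adamts8. All 4 were among the 5 bright genes of the class, and 37.9% of all bright genes were lower. The median log2 fold change of those 5 was -0.47, with -0.12 over all bright genes, and that of the 2 dim ones was -0.06, with 0.15 over all dim genes. Adamts5, a major aggrecanase and versicanase, had 6.42, 6.34 and 6.41 in the hydrogen group, against 6.95, 6.93 and 6.96 in controls. The gap between the groups was several times the spread inside either (log2 fold change -0.56, SE 0.05, adjusted p = 0.000308), or 0.680 times the control level. Of its 4 probe sets, the 3 bright ones were lower, the others of these with -0.40 (adjusted p = 0.00131) and -0.32 (adjusted p = 0.00761), and the dim one did not pass (0.08). The mean over all 4 had -0.30, and the brightest probe set had -0.37 after a new quantile normalisation, both still called.

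Adamts15, an aggrecanase, had 6.85, 6.77 and 6.46 in the hydrogen group, against 7.21, 7.31 and 7.73 in controls. The groups did not overlap and both were more spread than those of Adamts5 (log2 fold change -0.72, SE 0.15, adjusted p = 0.00474). Adamts8, a family member that is abundant in lung, had 6.12, 6.25 and 6.37 in the hydrogen group, against 6.68, 6.61 and 6.56 in controls. It was lower without overlap (log2 fold change -0.37, SE 0.07, adjusted p = 0.00462), but not past the threshold after a new quantile normalisation (-0.20, adjusted p = 0.0569). Adamts15 and Adamts8 are neighbours among the member genes of chromosome 9.

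Adamts9, which cuts versican and aggrecan, had 7.50, 7.21 and 7.17 in the hydrogen group, against 7.90, 7.52 and 7.88 in controls. The lowest control lung lay only just above the highest hydrogen lung (log2 fold change -0.47, SE 0.12, adjusted p = 0.0134). A further probe set differed far more, with 5.16, 5.45 and 5.85 in the hydrogen group, against 7.21, 6.74 and 7.06 in controls (log2 fold change -1.52, SE 0.17, adjusted p = 0.000542). The third probe set overlapped (-0.23, adjusted p = 0.384), its control values running from 5.96 to 6.91. The 3 probe sets of Adamts9 had 1 sign but unequal sizes, their mean had -0.74, and the brightest was not called after a new quantile normalisation (-0.24, adjusted p = 0.147) or cyclic loess (-0.27, adjusted p = 0.112). Adamts1, Adamts4 and Adamts20, of the same class, did not pass, with -0.15, -0.02 and -0.10. A further, dim probe set of Adamts4 was called higher without overlap (log2 fold change 0.23, adjusted p = 0.0129). It had 3.47, 3.37 and 3.46 in the hydrogen group, against 3.15, 3.25 and 3.22 in controls. The mean of both Adamts4 probe sets was not called (0.105, adjusted p = 0.113).

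Fibroblasts, smooth muscle and endothelial cells are known sources of Timp3 and of these ADAMTS genes, and the markers of these cells were counted beside them. Of 10 fibroblast markers 5 were lower and 2 higher (median -0.28), with a summed linear signal of 3403 to 3720 in the hydrogen group and 4153 to 4555 in controls. Of 6 smooth muscle and pericyte markers 4 were lower and none higher (median -0.32), with sums of 1702 to 2097 in the hydrogen group and 2280 to 2563 in controls. Endothelial markers, all bright, were lower for 3 of 8 genes and higher for none (median -0.06). Their sums were 6384 to 7419 in the hydrogen group and 7167 to 7672 in controls. All smooth muscle and pericyte markers were bright as well, as were the 5 lower fibroblast markers. Over all bright genes 37.9% were lower, with a median of -0.12, so the endothelial share lay near that of the array. Of 5 mesothelial markers 1 was higher and none lower, with sums of 529 to 547 (hydrogen) and 269 to 478 (controls). Of 4 adipocyte markers 2 were higher and 1 lower, with sums of 84.8 to 1072 (hydrogen) and 1011 to 1256 (controls). Of 8 cartilage markers 4 were higher and 1 lower, with sums of 201 to 224 (hydrogen) and 233 to 250 (controls). Over all genes 51.4% were called. The heart marker sum ranged over 2.31 on the log2 scale inside the hydrogen group and over 0.34 inside the control group. Timp3 ranged over 0.21 in the hydrogen group and 0.05 in controls, and Adamts5 over 0.08 and 0.03. Adamts9 ranged over 0.33 in the hydrogen group and 0.38 in controls, and Adamts15 over 0.39 and 0.52. The part of cell makeup in the lower values was not tested.

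Of the other ADAMTS genes, Adamts16 was higher, with the largest difference of the 35 genes when each is read from its brightest probe set. It had 5.99, 6.39 and 6.17 in the hydrogen group, against 5.12, 5.34 and 5.25 in controls. Every hydrogen lung lay above every control lung (log2 fold change 0.95, SE 0.10, adjusted p = 0.000452), 1.93 times the control level. Its dim probe set did not pass (0.14, adjusted p = 0.148), and the mean of both had 0.54, a smaller change than the means of Adamts9 (-0.74), Adamts15 (-0.72) and Timp3 (-0.65). ADAMTS16 is a secreted protease studied in kidney and gonad.

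Adamts3, whose product processes procollagen and pro-VEGFC, was dim and lower, with 4.12, 4.11 and 4.26 in the hydrogen group, against 4.35, 4.49 and 4.67 in controls (log2 fold change -0.34, adjusted p = 0.0133). Its further probe set did not pass (0.13, adjusted p = 0.101) and lay on the other side of 0, so that the mean of both was not called (-0.10, adjusted p = 0.164). Adamts18 was dim and higher, with 3.83, 3.85 and 3.80 in the hydrogen group, against 3.63, 3.71 and 3.69 in controls (log2 fold change 0.15, adjusted p = 0.0453). All 3 of its probe sets were higher, yet that call ended on leaving out any array (adjusted p up to 0.13) and under each scaling (up to 0.589). Adamts10 had 0.12 without passing (adjusted p = 0.162) and was called higher after cyclic loess (0.32, adjusted p = 0.00762) and a new quantile normalisation. The others of this group, Adamts6, Adamts7 and Adamts12, ran from -0.12 to 0.07 and did not pass.

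**Figure D4:**
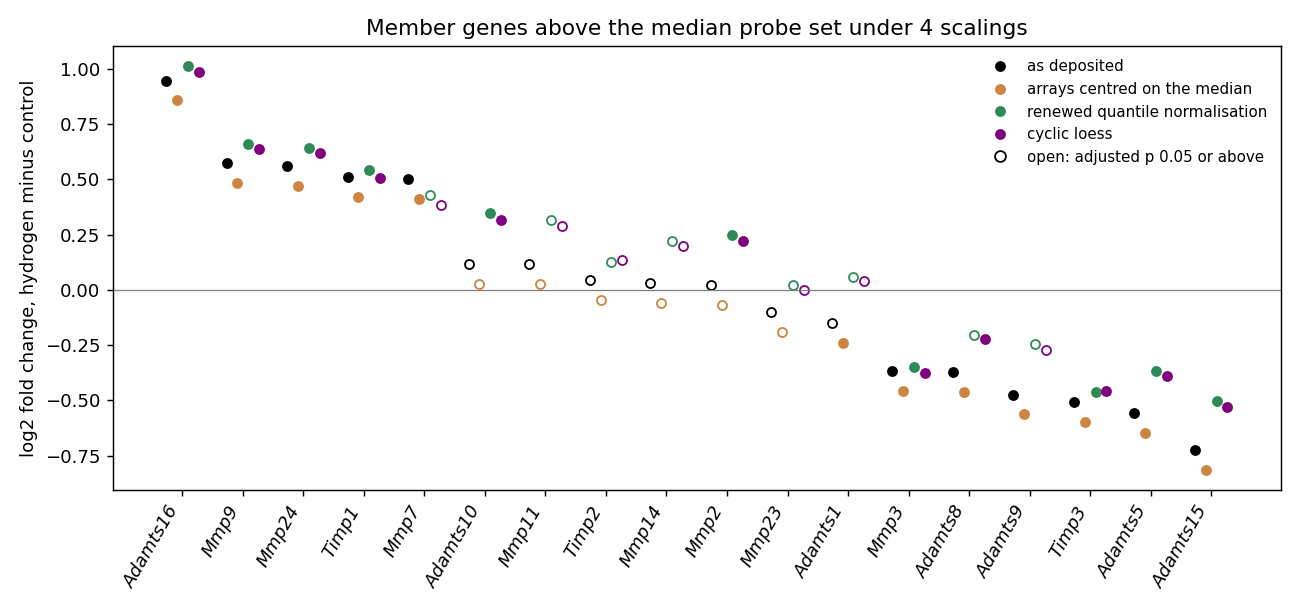
Log2 fold change (hydrogen minus control) of the 18 bright member genes with values as deposited, with arrays centred on their medians, after a new quantile normalisation and with cyclic loess. Filled points have an adjusted p under 0.05. Adamts16, Mmp9, Mmp24, Timp1, Mmp3, Timp3, Adamts5 and Adamts15 are filled under all 4 scalings.

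Several probe sets measured 17 of the 35 genes. For 7 of these, 2 or more probe sets were called in the same direction, and for none were probe sets called in both directions. In 8 genes called and uncalled probe sets stood side by side, and in 6 none was called. These counts have no share over all genes beside them, and 47.1% of all probe sets were called. They describe the members alone.

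Genes that activate or hold back these proteases were also measured, 17 of 21 listed. Of these 3 were higher, 5 lower and 9 not called, with a median of -0.11. Reck, a membrane-anchored inhibitor of MMPs, was lower, with 9.16, 9.10 and 9.24 in the hydrogen group, against 9.60, 9.54 and 9.57 in controls (log2 fold change -0.40, SE 0.06, adjusted p = 0.00118). Caveolin-1 (Cav1), a coat protein of the membrane pits through which cell surface proteases can be taken up, was lower by a small amount (-0.27, adjusted p = 0.00365). The urokinase receptor gene Plaur was higher (0.32, adjusted p = 0.00916), as was the proprotein convertase gene Pcsk6 (0.22, adjusted p = 0.0141). Among 19 substrate genes 2 were higher, 6 lower and 11 not called (median -0.07). The small proteoglycan gene Lum (-0.73, adjusted p = 0.000778) and the basement membrane gene Nid1 (-0.41, adjusted p = 0.00151) were lower, and both genes that were higher were dim. The shares called, 47.1% of the activation genes and 42.1% of the substrates, lay below the 51.4% over all genes.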

How the data were processed

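The authors deposited 1 table of log2 values, 1 column for each of 6 arrays. The submitters' processing notes name RMA and Affymetrix Expression Console; their versions and the set of arrays normalised in a run were not given in the sources used here. Probe sets were named through the platform annotation given for this work; all 63 member probe sets matched RefSeq names by Entrez identifier. The 104 control probe sets were left out of the tests.

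Groups were compared over all 45037 probe sets with limma 3.58.1 (R 4.3.3; lmFit and eBayes without trend) on the log2 values as deposited, with Benjamini-Hochberg adjustment over all of them. A single family of p-values thus served probe sets and genes. SEs are moderated, and the number of arrays, 3 in each group, limits the precision. The series' design counts mice, so replicates are mice. With 3 mice in each group the smallest two-sided p of an exact permutation test is 0.1, so single genes were tested in limma alone. Marker sums add values turned back to the linear scale. The step was tested on simulated data with known changes. Figures used matplotlib 3.10.9 in Python 3.11.15.

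Members, gene lists and tests were chosen with earlier results of these data known. By a stated rule, values on all arrays were given for the TIMPs, Mmp2, Mmp9, Mmp12, Mmp14, bright genes past the threshold without overlap, and the 6 dim genes past it with the largest difference; Mmp7 was added after its values were seen. From the lists of activation genes, substrates, ADAM genes, other enzymes and neutrophil markers, bright genes past the threshold with the smallest p were named. Up to 2 were named in each direction, with S100a8, Lcn2, Sftpc and Scgb1a1 besides. The other marker lists are given by counts and sums. Alternatives were a replicate block, 3 other scalings, weights for arrays, trend and robust fitting of the prior variance, no dim probe sets, the mean of all probe sets, 1 probe set a gene, dropping shared probe sets, and dropping each array in turn.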

Additional observations from a re-analysis of the deposited data

How the results depend on the processing

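Timp3, Timp1, Mmp9, Mmp24, Mmp3, Mmp13, Adamts16, Adamts5 and Adamts15 kept their direction and their side of the threshold in all alternatives run. Of 543 values of single genes under alternatives, 492 stayed on their side of the threshold: 450 with the same direction, 26 with the direction turned in genes called in neither case (13 genes), and 16 with a value of 0 on one side. In 36 a call ended, over 8 genes, and in 14 a call was gained in the same direction, over 5 genes. Timp2, not called as deposited, was called lower with the mean of its probe sets (-0.18), against a positive value as deposited. The 14 member probe sets that were higher became 6 with centred arrays, 9 after a new quantile normalisation, 7 after cyclic loess and 6 without dim probe sets, where only bright ones were tested, and 8 to 13 on leaving out an array. The 16 lower ones became 20 with centred arrays, and 15 to 16 on leaving out an array. Among dim genes, the 3 that were higher became 0 under each of the 3 scalings and 1 with a replicate block, and 1 to 2 on leaving out an array; the 3 that were lower became 5 after a new quantile normalisation and 5 after cyclic loess, and 2 to 3 on leaving out an array. Of the bright genes, 5 higher and 6 lower as deposited, 5 were higher and 7 lower with centred arrays, 6 and 4 after a new quantile normalisation, 6 and 5 after cyclic loess, and 4 to 5 and 6 to 6 on leaving out an array. Over all probe sets the 10956 higher became 6377 with centred arrays, 8442 after a new quantile normalisation and 7635 after cyclic loess. Without dim probe sets 3663 of 22517 were higher, and 7985 to 10097 of all probe sets on leaving out an array. Over all probe sets the 10257 lower became 14571, 7564 and 8283 under those 3 scalings, and 7938 to 9608 on leaving out an array. The cause of these shifts was not tested. Deviations of same-numbered mice from their group means correlated at 0.08, 0.03 and -0.11, and only hydrogen replicate 1 correlated best with its own number. The deviations of 3 mice are tied to each other within a group, so these values cannot decide whether replicate numbers pair the mice. With the replicate block 12 member probe sets were higher and 16 lower, and Adamts18 (adjusted p = 0.0787) and Mmp17 (0.052) were no longer called. Low signal limits the 17 dim genes, and 3 arrays in each group limit all values.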

Other observations

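Proteases outside the MMP and ADAMTS families changed in both directions. Of 8 genes of the related ADAM family, membrane proteases that shed cell surface proteins, 3 were higher and 3 lower. Adam33, an airway gene linked to asthma in humans, had 6.53, 6.43 and 6.38 in the hydrogen group, against 5.89, 5.82 and 5.69 in controls (log2 fold change 0.65, SE 0.07, limma adjusted p = 0.000451). Adam12 was higher too (0.47, adjusted p = 0.000421), in values that lay apart from the controls. Adam9 (-0.34, adjusted p = 0.00154) and Adam8 (-0.43, adjusted p = 0.00858) were lower. Of 10 other matrix-degrading enzymes, 3 were higher and 2 lower. Cathepsin K (Ctsk), a collagen-degrading cysteine protease, had 6.05, 5.97 and 6.30 in the hydrogen group, against 6.88, 6.75 and 7.02 in controls (log2 fold change -0.78, SE 0.10, adjusted p = 0.000781). Hyal1, a hyaluronidase, was lower as well (-0.56, adjusted p = 0.00166), and the lysosomal protease gene Ctsd was higher (0.23, adjusted p = 0.0377). These lists were called for 75% and 50% of their genes, against 51.4% of all genes.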
